A study of Mus musculus with 4 samples.

Results

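Notch signalling works by contact between cells: a ligand of the Jagged or Delta-like family on one cell binds a Notch receptor on its neighbour, the receptor is cut, and its freed inner part enters the nucleus and switches on genes together with the DNA-binding protein RBPJ. Hey1 and Heyl, which encode transcriptional repressors, are among the genes switched on in this way. In muscle the pathway is known for keeping satellite cells quiescent, and in vessel walls for arterial identity (Notch1, Notch4, Dll4) and for the smooth muscle cells and pericytes around them (Notch3, Heyl).

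The genes described are the 10 named Notch receptors (Notch1, Notch2, Notch3, Notch4), ligands (Jag1, Jag2, Dll1, Dll4) and targets (Hey1, Heyl), chosen by symbol from the 24421 symbols of the count table. They were compared between fibro/adipogenic progenitors (FAPs, the mesenchymal stromal cells of skeletal muscle) that lacked or carried DPPIV, a surface peptidase encoded by Dpp4. Each of 2 wild-type adult mice gave 1 DPPIV- and 1 DPPIV+ library of bulk RNA. Both cell types, and so every library, came from muscle after 3 weeks of CSF1R inhibition (PLX73086 in the chow, per the methods), which depletes resident macrophages, and 3 days back on a regular diet. No library of an untreated mouse was part of the comparison. Sorted cells were PI- CD31- CD45- Sca1+, from both hindlimbs according to the protocol, although the source is labelled as tibialis anterior. The CD31 and CD45 gates serve to remove endothelial and blood cells, but markers of both were still counted in every library.

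Libraries held 18240110 to 20879405 counts, and the 3 counts taken as the limit of detection equal 0.143 to 0.167 CPM (counts scaled to the library total), which covers counting error only. Dpp4 had 1879 and 776 counts in the DPPIV- libraries of mouse 1 and mouse 2, and 13106 and 10476 in the DPPIV+ libraries, so the labels matched the sorted marker. The FAP markers Pdgfra and Ly6a stood at 1159 to 1657 and 962 to 1471 CPM in all 4 libraries. Of the 24421 symbols, 11588 had at least 2 CPM in at least 2 libraries and were tested. With edgeR's quasi-likelihood test at an adjusted p under 0.05, 15.9% of them were higher and 17.2% lower in DPPIV+ FAPs, 33.0% in all, and the median log2 fold change was -0.002. The replicates were separate mice, and with 2 of them the p-values rest on a spread shared across genes.

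All 10 genes lie on annotated protein-coding loci (GENCODE M21, GRCm38, the assembly also called mm10). The receptors were Notch1 (chr2:26457903-26516663, minus strand), Notch2 (chr3:98013527-98150361, plus), Notch3 (chr17:32120820-32166852, minus) and Notch4 (chr17:34564268-34588503, plus). Exons of Notch1, Notch3, Dll1 and Dll4 share 214 to 1068 bases with noncoding genes on the opposite strand, and those of Notch2 share 541 bases with a predicted gene on the same strand. Whether the counting used strand is not given in the sources used here, so reads in those stretches cannot be assigned to one gene with certainty.

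The stretches just upstream of 4 receptors and ligands are shown because Notch2 and Jag1 were higher, and Notch3 and Notch4 lower, in DPPIV+ FAPs. They were taken from RefSeq promoter windows (GRCm38.p6), which matched 8 of the 10 members, all but Hey1 and Heyl, and were trimmed to the bases before the gene start in both annotations. Each is read 5′ to 3′ on the gene's own strand, with every CpG in capitals.
Notch2 (chr3:98013288-98013526, plus): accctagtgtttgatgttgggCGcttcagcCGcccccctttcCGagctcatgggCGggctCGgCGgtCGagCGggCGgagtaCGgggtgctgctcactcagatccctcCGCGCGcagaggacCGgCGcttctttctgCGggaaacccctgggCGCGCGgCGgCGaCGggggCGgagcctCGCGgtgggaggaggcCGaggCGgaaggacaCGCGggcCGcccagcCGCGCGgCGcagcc
Jag1 (chr2:137116645-137116770, minus): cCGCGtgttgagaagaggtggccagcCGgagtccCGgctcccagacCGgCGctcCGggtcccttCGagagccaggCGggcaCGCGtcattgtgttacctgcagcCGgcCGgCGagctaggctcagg
Notch3 (chr17:32166891-32167140, minus): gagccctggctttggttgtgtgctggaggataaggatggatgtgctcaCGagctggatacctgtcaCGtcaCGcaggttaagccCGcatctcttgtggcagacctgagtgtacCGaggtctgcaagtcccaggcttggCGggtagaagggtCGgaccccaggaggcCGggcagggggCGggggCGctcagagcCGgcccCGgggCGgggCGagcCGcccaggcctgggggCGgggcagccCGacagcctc
Notch4 (chr17:34564045-34564267, plus): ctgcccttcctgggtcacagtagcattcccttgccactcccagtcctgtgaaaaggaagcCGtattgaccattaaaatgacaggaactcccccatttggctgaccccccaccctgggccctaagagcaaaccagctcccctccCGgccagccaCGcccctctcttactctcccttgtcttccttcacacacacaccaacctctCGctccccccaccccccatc

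The Notch2 stretch held 34 CpGs in 239 bases, the Jag1 stretch 14 in 126, the Notch3 stretch 17 in 250 and the Notch4 stretch 4 in 223. Over the whole 300-base windows the GC content was 73.0% for Notch2, 55.7% for Jag1, 70.0% for Notch3 and 58.3% for Notch4, against a median of 52.7% in all 32851 windows. The letters of the RBPJ core, TGGGAA, were in none of the 9 member windows on either strand. Those of the E-box CACGTG, a sequence that Hey and Hes repressors can bind, were also in none. Other sequences that these repressors may bind were not searched for, so the absence of CACGTG does not cover them. Of all windows, 25.6% held TGGGAA and 7.15% held CACGTG. These matches describe letters in a window and nothing about binding.

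Of the 10 members, 7 passed the filter on low counts, and 6 of these had at least 2 CPM in every library, while Hey1 fell below it in 1 DPPIV+ library. All 7 differed between the cell types by edgeR: Notch2 and Jag1 were higher in DPPIV+ FAPs, and Notch1, Notch3, Notch4, Hey1 and Heyl were lower. The same 7 were called by DESeq2, which called 16.6% of all genes. Levels of the 7 did not overlap between the cell types, as was the case for 56.3% of all genes tested. Jag2, Dll1 and Dll4 were below the filter. In bulk RNA, fewer cells of a type and less RNA per cell cannot be told apart.

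**Figure D1:**
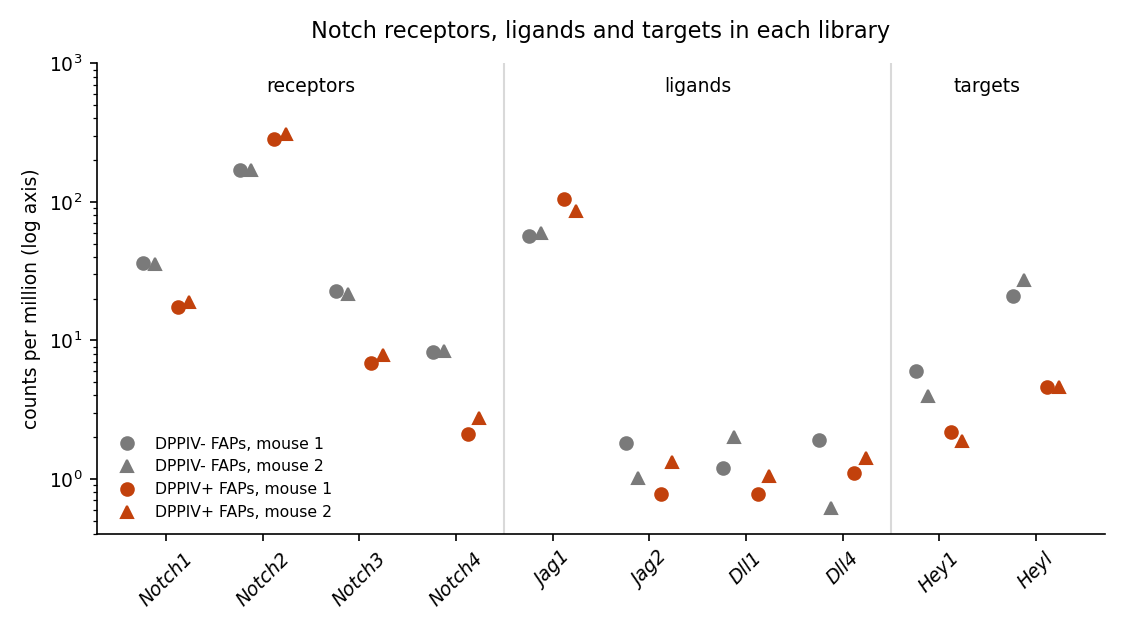
CPM on a log axis of the 10 members, grouped by role, in each of the 4 libraries; grey marks DPPIV- and orange DPPIV+ FAPs, circles mouse 1 and triangles mouse 2. Notch2 and Jag1 sit higher in both DPPIV+ libraries, Notch1, Notch3, Notch4, Hey1 and Heyl sit lower, and Jag2, Dll1 and Dll4 lie near 1 CPM.

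Notch2 was the most abundant member and the only receptor that was higher in DPPIV+ FAPs. It had 3570 and 3307 counts in the DPPIV- libraries of mouse 1 and mouse 2, and 5095 and 5589 in the DPPIV+ libraries. Both DPPIV+ libraries were above both DPPIV- libraries. The mean rose from 170 ± 1.08 to 295 ± 16.7 CPM (SD, n = 2 mice), a log2 fold change of 0.79 (SE 0.07, edgeR adjusted p = 2.34e-30), with 0.73 in mouse 1 and 0.86 in mouse 2.

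Notch1, the receptor with the broadest known roles in development, was lower in DPPIV+ FAPs by about the same amount in each mouse. There were 751 and 699 counts in DPPIV- FAPs of mouse 1 and mouse 2 against 316 and 342 in DPPIV+ FAPs. The DPPIV- libraries were nearly equal, and both DPPIV+ libraries lay well under them. The mean fell from 35.8 ± 0.108 to 18.2 ± 0.857 CPM (log2 fold change -0.98, SE 0.09, edgeR adjusted p = 1.28e-23), with -1.03 in mouse 1 and -0.93 in mouse 2.

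Notch3, the receptor typical of mural cells, had 476 and 424 counts in DPPIV- FAPs and 124 and 142 in DPPIV+ FAPs. Its mean CPM was 22.2 ± 0.757 and 7.34 ± 0.639, a 3.03-fold difference (log2 fold change -1.60, SE 0.13, edgeR adjusted p = 7.35e-32). Both mice showed it, with -1.72 and -1.48. Notch4, the receptor typical of endothelium, was the receptor with the largest fitted fold difference, 3.42-fold lower in DPPIV+ FAPs. It had 172 and 164 counts in DPPIV- FAPs and 38 and 50 in DPPIV+ FAPs, means of 8.30 ± 0.117 and 2.43 ± 0.447 CPM. The log2 fold change of Notch4 was -1.77 (SE 0.22, edgeR adjusted p = 7.16e-15), from -1.96 in mouse 1 to -1.61 in mouse 2. The 95% intervals of Notch3 (-1.86 to -1.34) and Notch4 (-2.20 to -1.35) overlap, and the difference between them was not tested.

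**Figure D2:**
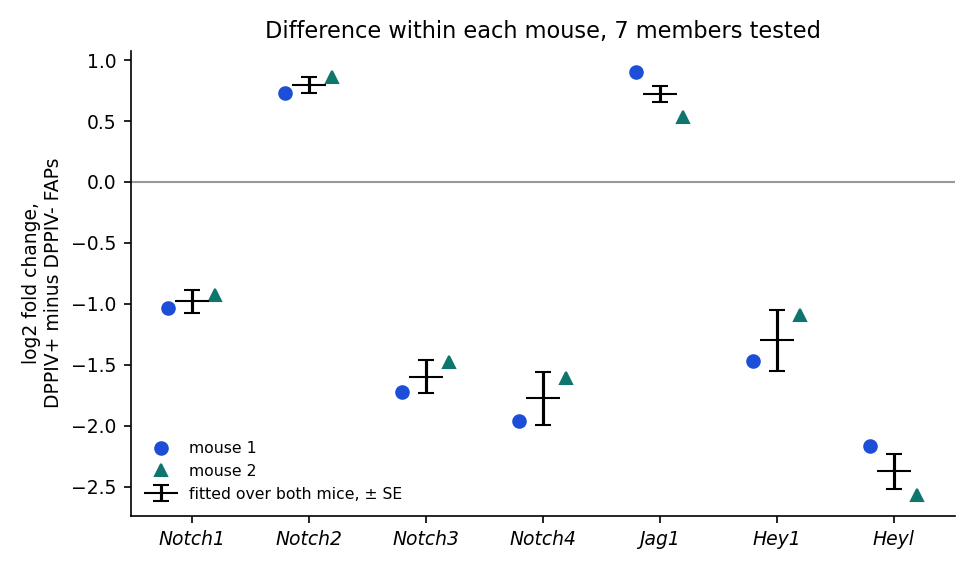
Log2 fold change of DPPIV+ against DPPIV- FAPs for the 7 members tested; black bars are the edgeR fit over both mice with its SE, and blue circles and green triangles are mouse 1 and mouse 2. Notch2 and Jag1 are above 0 and the other 5 below it in each mouse, and Heyl lies lowest at -2.37.

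The receptor pool therefore had a different makeup in the 2 cell types. Per exonic length, Notch2 made up 71.4% and 71.6% of receptor transcripts in the DPPIV- libraries of the mice, against 91.8% and 91.6% in the DPPIV+ libraries. Notch1 went from 11.4% and 11.5% to 4.31% and 4.24%, Notch3 from 12.7% and 12.2% to 2.98% and 3.10%, and Notch4 from 4.60% and 4.75% to 0.916% and 1.096%. The mice differed by under 1 percentage point for each receptor, while the mean share of Notch2 differed by 20.2 points between the cell types. With 2 mice an exact permutation test of 1 share cannot reach 0.05, so no p is given.

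**Figure D3:**
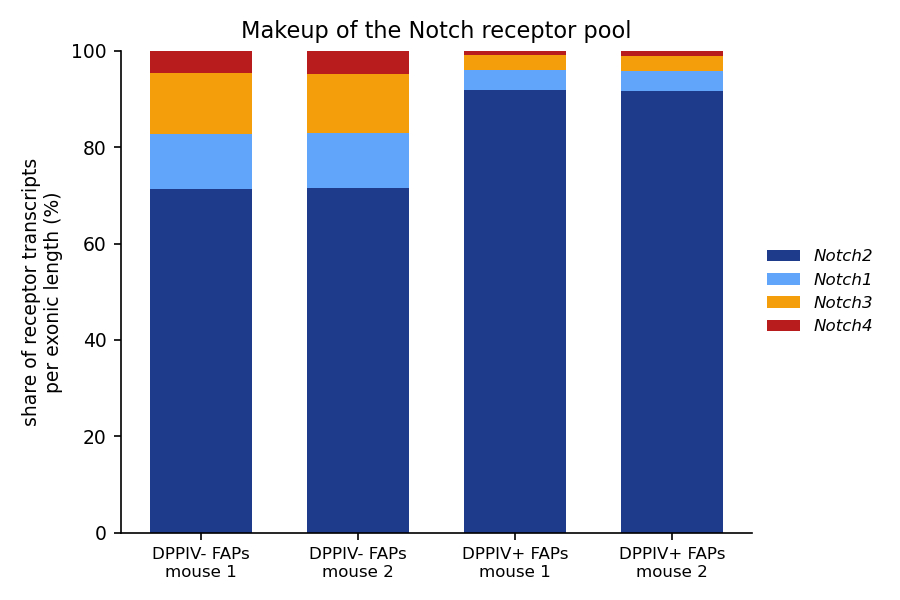
Share of the summed receptor transcripts per exonic length (%) taken by each of the 4 Notch receptors, 1 stacked bar for each library. Notch2 takes 71.4% and 71.6% of the DPPIV- bars and 91.8% and 91.6% of the DPPIV+ bars.

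In TPM, the level of a transcript per exonic length relative to all transcripts of the library, the 4 receptors together stood at 90.6 and 92.7 in DPPIV- FAPs and at 117 and 127 in DPPIV+ FAPs. Notch1, Notch3 and Notch4 together fell from 26.0 and 26.4 to 9.57 and 10.7 TPM, so the total was higher in DPPIV+ FAPs through Notch2. In DPPIV- FAPs the order by TPM was Notch2 (64.7 and 66.3), Notch3 (11.5 and 11.3), Notch1 (10.3 and 10.6) and Notch4 (4.17 and 4.40). The gap between Notch3 and Notch1 depended on the length used: per coding length Notch1 took the larger share, 14.6% against 9.88%. In DPPIV+ FAPs Notch2 (107 and 116 TPM) was followed by Notch1 (5.03 and 5.38), Notch3 (3.47 and 3.93) and Notch4 (1.07 and 1.39).

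Jag1 was the one ligand above the filter, and it was higher in DPPIV+ FAPs. There were 1182 and 1165 counts in the DPPIV- libraries of mouse 1 and mouse 2, and 1902 and 1568 in the DPPIV+ libraries. The DPPIV+ libraries were both higher, by less in mouse 2 than in mouse 1. Mean CPM was 58.0 ± 2.17 and 95.8 ± 13.9, a 1.65-fold difference (log2 fold change 0.72, SE 0.07, edgeR adjusted p = 1.04e-25), with 0.90 in mouse 1 and 0.53 in mouse 2. Against a 1.5-fold change rather than no change, Jag1 missed the threshold (adjusted p = 0.0573 by edgeR), and the gap between the mice was not tested, since each mouse has 1 library per cell type.

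The Delta-like ligands and Jag2 were scarce in both cell types. Jag2 had 38 and 20 counts in DPPIV- FAPs and 14 and 24 in DPPIV+ FAPs, and Dll4 had 40 and 12 against 20 and 26, so both overlapped between the cell types. Dll1 had 25 and 39 counts against 14 and 19, with both DPPIV+ libraries under both DPPIV- libraries. In the edgeR fit without the filter, in which 23.1% of 16873 genes were called, none of the 3 passed: adjusted p was 0.606 for Jag2, 0.216 for Dll1 and 0.932 for Dll4. The 95% intervals of the log2 fold change, -1.26 to 0.43 for Jag2, -1.63 to 0.07 for Dll1 and -0.75 to 0.91 for Dll4, include changes of more than 1.5-fold in at least 1 direction. Within the mice, Jag2 and Dll4 went opposite ways, with log2 ratios of -1.22 and 0.36 for Jag2 and -0.78 and 1.22 for Dll4 in mouse 1 and mouse 2. Per exonic length Jag1 made up 90.3% and 92.9% of the 4 ligands in DPPIV- FAPs and 96.9% and 94.8% in DPPIV+ FAPs, and the summed ligand level was 43.9 and 46.5 against 76.3 and 63.5 TPM.

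Heyl had the largest difference of the members. It had 434 and 534 counts in the DPPIV- libraries of mouse 1 and mouse 2, and 83 and 84 in the DPPIV+ libraries. The DPPIV+ libraries were alike, and both DPPIV- libraries were over 4 times as high. Mean CPM was 24.0 ± 4.64 and 4.61 ± 0.000945. The SD in DPPIV+ FAPs comes from 2 values alone, 83 and 84 counts, and is no measure of precision. The fitted difference was 5.18-fold (log2 fold change -2.37, SE 0.14, edgeR adjusted p = 6.91e-59), with -2.17 in mouse 1 and -2.56 in mouse 2.

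Hey1 moved the same way at a lower level and with less certainty. It had 126 and 78 counts in DPPIV- FAPs and 39 and 34 in DPPIV+ FAPs. The groups did not overlap, but the DPPIV- libraries differed from each other by 1.51-fold in CPM. Mean CPM was 5.004 ± 1.44 and 2.02 ± 0.213 (log2 fold change -1.30, SE 0.25, edgeR adjusted p = 1.35e-06, DESeq2 adjusted p = 0.0263), with -1.47 in mouse 1 and -1.09 in mouse 2. Without the mouse block and without 1 library, edgeR no longer called Hey1 in 3 of 4 cases: adjusted p was 0.063 without the DPPIV- library of mouse 1, 0.0549 without the DPPIV+ library of mouse 1 and 0.0984 without the DPPIV+ library of mouse 2. None of the 7 members tested differed between mouse 2 and mouse 1 in the edgeR fit, a comparison in which 8.98% of all genes were called; the smallest adjusted p was 0.191, for Heyl.

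Markers of mural, endothelial and blood cells are set beside the members that are known from vessels. Of 8 mural markers, all tested, 7 were lower and 0 higher by edgeR, 3 of them also by DESeq2 (Cspg4, Kcnj8 and Abcc9), and their summed level was 187 and 189 CPM in DPPIV- FAPs and 93.7 and 112 in DPPIV+ FAPs. Of 10 blood endothelial markers, 9 were tested, with 6 lower and 1, Tek, higher by edgeR, while DESeq2 called Tek and 0 of the 6. Tek made up most of that list's counts, so the sum was also taken without it, a choice made after its values were seen: 98.6 CPM (mouse 1) and 52.7 CPM (mouse 2) in DPPIV- FAPs, against 55.1 and 49.1 in DPPIV+ FAPs. With Tek the sums were 286 and 202 against 522 and 476 CPM. Macrophage and blood cell markers summed to 319 and 188 against 198 and 181 CPM, with 4 of 6 lower by edgeR and 0 by DESeq2; in mouse 2 alone the sum was 1.04 times as high in DPPIV- as in DPPIV+ FAPs. None of the mural, endothelial or macrophage markers was at 0 in all libraries.

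The DPPIV- library of mouse 1 held 1.87 times the endothelial sum without Tek of the DPPIV- library of mouse 2, while the same ratio was 1.00 for Notch1, 0.98 for Notch4 and 1.05 for Notch3. Of single endothelial markers, Cdh5 had a ratio of 1.34 and Pecam1 of 1.82 between those libraries. Cdh5 was 1.26 (mouse 1) and 1.25 times (mouse 2) as high in DPPIV- as in DPPIV+ FAPs, and Pecam1 1.74 and 1.00 times. Within mouse 2, the endothelial sum without Tek was 1.07 times as high in DPPIV- as in DPPIV+ FAPs. In that mouse Notch1 was 1.90 times, Notch4 3.06 times and Notch3 2.78 times as high. The mural sum had a ratio of 0.988 between the DPPIV- libraries, and it was 2.00 times as high in DPPIV- FAPs in mouse 1 and 1.69 times in mouse 2. For Notch3 those ratios were 3.30 and 2.78, and for Heyl 4.50 and 5.92. Single mural markers spread widely around their sum. Their fitted fold differences ran from 1.16 (Des) to 5.11 (Abcc9), all lower in DPPIV+ FAPs, with Kcnj8 at 2.50 and Cspg4 at 2.41. The part of mural cells in the lower Notch3 and Heyl of DPPIV+ FAPs was not tested. Nor was the part of endothelial cells in the lower Notch1 and Notch4 tested. Of the scarce ligands, Dll4 had 3.12 times the CPM in the DPPIV- library of mouse 1 that it had in that of mouse 2. Glial markers had 1 lower of 3 tested, tenocyte markers 3 higher and 1 lower of 4 (DESeq2 called the 3 alone), and FAP markers 2 higher and 4 lower of 6. Lymphatic endothelial and myofibre markers had 0 calls, and the 4 satellite cell markers were all below the filter, with sums of 0.833 to 1.64 CPM.

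**Figure D4:**
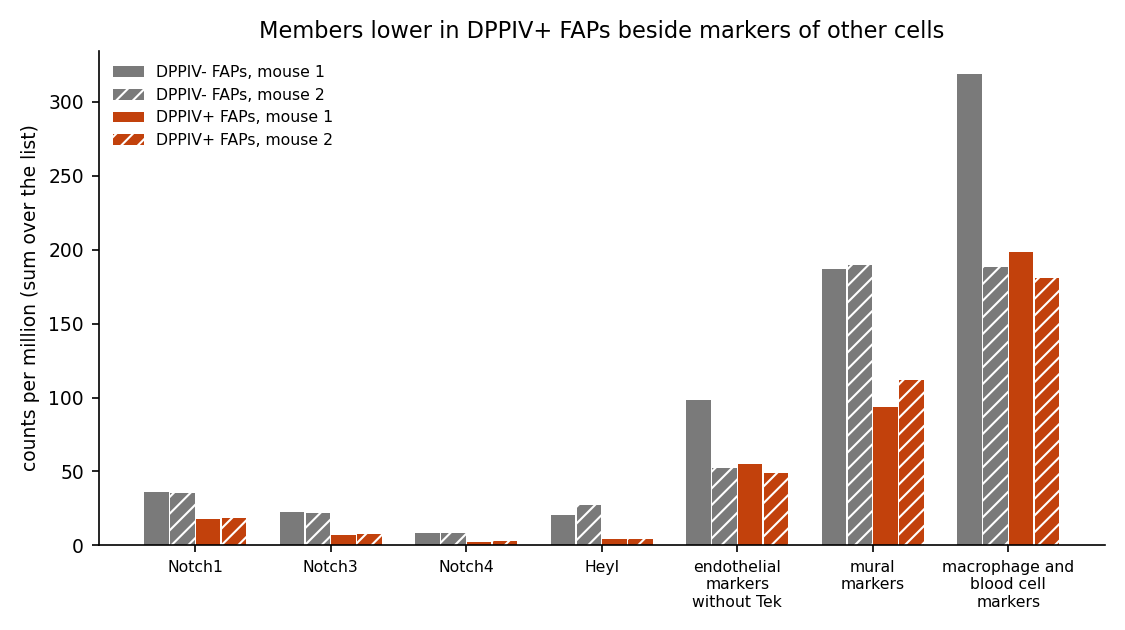
CPM of Notch1, Notch3, Notch4 and Heyl and summed CPM of 3 marker lists in each library, on a linear axis from 0; colour gives the cell type and hatching mouse 2. The members and the mural sum are alike in both DPPIV- libraries, apart from Heyl (20.7 and 27.3 CPM). The endothelial sum, drawn without Tek, and the macrophage sum are highest in the DPPIV- library of mouse 1.

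Around the members, 58 other genes of the pathway were listed by role; 48 were tested, 9 were higher and 13 lower by edgeR, and their median log2 fold change was -0.02. Of the 48, 22 were called in either direction, against 33.0% of all genes. DESeq2 called 4 higher and 5 lower of the 48, where it called 16.6% of all genes. Without the mouse block edgeR called 4 and 7 of them, against 1001 higher and 1119 lower of all 11588 genes tested. Of the 18 called pathway genes named here, 4 (Dlk1, Dtx2, Neurl1b and Rbpj) were called in each unblocked edgeR fit without 1 library, and 4 (Adam17, Ctbp2, Furin and Pofut1) in none of those fits. Dll3, Dlk2 and Hes5 were at 0 in all libraries.

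Among other ligands, Dlk1, a noncanonical Delta-like protein of preadipocytes, had 118 and 110 counts in DPPIV- FAPs and 15 and 9 in DPPIV+ FAPs (log2 fold change -3.08, SE 0.30, edgeR adjusted p = 8.07e-23). Dner, a neuronal Notch ligand, had 45 and 32 against 4 and 4 counts and was below the filter. Both DPPIV+ libraries were far below the DPPIV- libraries for each of them, and the fit without the filter called Dner (edgeR adjusted p = 9.90e-07). Among other targets Hes1, a widely used Notch target, had a smaller fitted difference than Hey1 and Heyl, with 66.3 and 69.7 CPM in DPPIV- FAPs against 45.9 and 61.9 in DPPIV+ FAPs. Its log2 fold change of -0.35 passed in edgeR (adjusted p = 3.44e-06) but not in DESeq2 (0.0784) or in edgeR without the mouse block (0.150), and it was -0.53 in mouse 1 and -0.17 in mouse 2. Without the DPPIV+ library of mouse 1 it was -0.13 (edgeR without the mouse block, adjusted p = 0.584). Hey2 (26 and 18 against 9 and 6 counts), Nrarp (34 and 19 against 15 and 14) and Hes7 (at most 3 counts) were below the filter. Without it neither Hey2 (edgeR adjusted p = 0.0976) nor Nrarp (0.389) passed.

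The DNA-binding partner of the cleaved receptor, Rbpj, was higher in DPPIV+ FAPs, with 78.2 and 73.1 against 137 and 117 CPM (log2 fold change 0.74, SE 0.07, edgeR adjusted p = 6.24e-28). Of the 8 genes of the nuclear complex it was the only one called higher by edgeR. Maml3, a coactivator, was called lower by edgeR (-0.41) but not by DESeq2 (adjusted p = 0.186), and its groups overlapped, with 29.7 and 18.1 against 20.9 and 14.8 CPM. Its log2 fold change was -0.02 without the DPPIV- library of mouse 1 and -0.19 without the DPPIV+ library of mouse 2 in the edgeR fit without the mouse block, where it was not called (adjusted p = 0.975 and 0.769). Of 12 corepressors, 2 were higher and 4 lower by edgeR. The lower ones were L3mbtl3 (-0.54), Tle2 (-0.48), Tle1 (-0.42) and Ctbp2 (-0.29), of which DESeq2 called L3mbtl3 alone. The 2 higher ones were also Tle genes, with log2 fold changes of 0.21 and 0.28, and DESeq2 called neither. Without the DPPIV+ library of mouse 2, Tle2 was at -0.21 and Ctbp2 at -0.19 in the unblocked edgeR fit (adjusted p = 0.476 and 0.502), and Ctbp2 was at -0.18 (0.460) without the DPPIV- library of mouse 1.

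Of the enzymes that glycosylate the receptor, 5 were tested, 2 higher and 1 lower. Lfng, one of the Fringe enzymes that shift receptors between ligand classes, fell from 11.7 and 9.10 to 5.72 and 5.16 CPM (log2 fold change -0.93, SE 0.17, edgeR adjusted p = 7.33e-07). Rfng, another Fringe enzyme, was more abundant and was not called, with 22.7 and 24.0 against 23.5 and 25.2 CPM (log2 fold change 0.06, edgeR adjusted p = 0.710). A further one, Mfng, was below the filter. Eogt (0.32) and Pofut1 (0.23) rose by less than Lfng fell and were not called by DESeq2. Of 10 proteases and gamma-secretase subunits, 3 were higher and 2 lower. Adam10 and Adam17, which make the first cut of the bound receptor, were higher by 0.36 and 0.29 on the log2 scale, and Furin, which processes the receptor on its way to the surface, was lower in edgeR (-0.17) and was not called by DESeq2. Aph1c, a gamma-secretase subunit, fell by 1.72 on the log2 scale from 2.34 and 2.04 to 0.611 and 0.713 CPM. It is a close relative of Aph1b, so its reads may be split between the copies, and DESeq2 did not call it (adjusted p = 0.0763).

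Among the ligases that act on ligands in the sending cell, Neurl1b was lower (8.12 and 8.44 against 4.05 and 3.29 CPM, log2 fold change -1.17, SE 0.20, edgeR adjusted p = 4.83e-08), and Mib1 and Mib2 did not pass. Among 8 tested genes of receptor turnover 1 was higher and 2 lower. Dtx2, a Deltex ligase, rose from 21.9 and 21.2 to 41.6 and 43.1 CPM (log2 fold change 0.97, SE 0.09, edgeR adjusted p = 4.66e-27), while Dtx4 was lower by a smaller amount (-0.40).

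**Figure D5:**
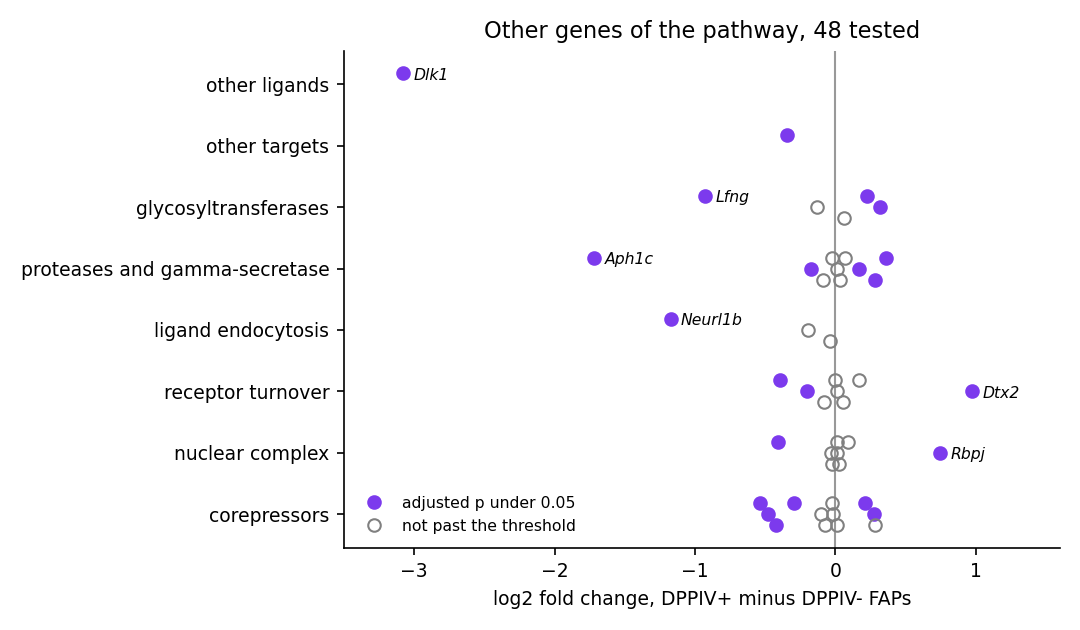
Log2 fold change of the 48 tested pathway genes by role; filled points passed an adjusted p under 0.05 in edgeR and open points did not, and names mark called genes past 0.7 in size. Most points lie within 0.5 of 0, with Dlk1 (-3.08), Aph1c (-1.72) and Neurl1b (-1.17) lowest and Dtx2 (0.97) and Rbpj (0.74) highest.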

How the data were processed

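Bulk RNA was sequenced in pairs of DPPIV- and DPPIV+ libraries from 2 mice. Per the methods, the authors demultiplexed reads with bcl2fastq 2.20, aligned them to mm10 with STAR and tallied them per gene with RnaReadCounter. The deposited values are raw counts per gene symbol, without normalization or a filter. The labels name an NEBNext kit and the methods a TruSeq kit, both stranded; the annotation release and the strand setting are not given in the sources used here.

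From these counts, a gene was tested if it reached 2 CPM in 2 or more libraries. Counts were scaled by TMM and fitted in edgeR 4.0.16 (R 4.3.3) with terms for mouse and cell type. The cell types were compared by the two-sided quasi-likelihood F test, p-values were adjusted by Benjamini-Hochberg across all 11588 genes tested, and the threshold was 0.05. The estimate of the prior degrees of freedom was infinite. The spread of each gene was therefore that of the trend with abundance, and abundant genes have very small p-values. The methods model the animal, and the labels give each animal code to 1 library of each cell type, so mouse was a block; across genes, the differences between the mice in both cell types had a correlation of 0.415. Per-mouse log2 values used a prior count of 0.125. CPM was on TMM-scaled totals, and TPM and receptor shares used exonic lengths from GENCODE M21. GC content and length were known for 96.7% of genes kept.

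The alternatives were DESeq2 1.42.0, limma-voom (limma 3.58.1), RLE or upper-quartile scaling, a fit without the block, testing of all genes with a count, a filter of 2 CPM in 3 libraries, robust moderation, a test against a 1.5-fold change, a threshold of 0.01, a correction for GC content and length (loess, span 0.5) and each mouse or library left out. Of these, only the main edgeR fit and DESeq2 were also run on simulated counts with 200 changed genes. There edgeR called 200 of them with 6 false calls, and DESeq2 182 with 0. The simulated spread followed the trend with abundance, with no difference between mice, so it cannot test that assumption about spread. The members and lists were chosen with earlier results of these data known. Named were all members, every other ligand and target, and the sorted and FAP markers. Of each other pathway role at most 4 called genes were named, past the threshold in the same direction in both mice. A few genes that were not called are named beside them. Other marker lists are given as counts and sums, with single genes where stated. The 2 most abundant genes of each list were carried through the alternatives. Figures were drawn with matplotlib 3.10.9.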

Additional observations from a re-analysis of the deposited data

How the results depend on the processing

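Of 105 member results with a test under 15 alternatives, 101 kept their direction and their side of the threshold, 4 kept the direction only (Jag1 against a 1.5-fold change and Hey1 without 1 of 3 libraries) and 0 reversed. The 14 values without 1 mouse, which have no test, kept their direction. With no replicate block all 7 members were still called. Members higher numbered 1 rather than 2 against a 1.5-fold change.

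Counts over all genes depended more on the fit. Genes higher and lower (1837 and 1989) became 923 and 995 by DESeq2, 1001 and 1119 with no replicate block, and 436 and 656 against a 1.5-fold change; leaving out 1 library each gave 632 to 1049 and 732 to 1121. Pathway genes higher and lower (9 and 13) became 4 and 5, 4 and 7, and 2 and 3, and 2 to 4 and 4 to 8 without 1 library. Members lower ranged from 4 to 5. The cause was not tested; unblocked fits without 1 library also have fewer samples. Without 1 mouse no test is possible, so counts have no value there. Receptor makeup by raw counts put the Notch2 shift at 19.4 points rather than 20.2. Without 1 library or mouse, 3 marker genes changed sign: Lyz2 (-0.80 to 0.02), Csf1r (-0.71 to 0.13) and Thbs4 (-0.68 to 0.26), with 0.0810, 0.0736 and 0.262 for Thbs4 and 0.0153 and 0.125 for the others where they reversed. Jag2, Dll1 and Dll4 had 12 to 40 counts in each library, and their intervals are wide.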
